A study of Oryza sativa Japonica Group with 41 samples.

Results

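The regions described here carried an H3K9ac peak in both ChIP-seq libraries of unstressed rice seedlings but had neither lysine butyrylation (Kbu) nor lysine crotonylation (Kcr) in both libraries of those marks. They were chosen from the deposited peak lists. All peaks of the 6 control libraries were merged wherever they shared at least 1 bp, and a merged region was kept if both H3K9ac libraries had a peak in it while Kbu had a peak in at most 1 of its 2 libraries and Kcr in at most 1 of its 2. Of 34010 merged control regions, 21386 had H3K9ac in both libraries, and 369 of these met the rule, which is 1.73% of the H3K9ac regions and 1.08% of all merged regions. By comparison, 20721 regions had all 3 marks, 167 had H3K9ac with Kbu only and 129 had H3K9ac with Kcr only. Since the peak calls of the 6 control libraries chose the members, their values in those libraries are given as a description.

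Acetylation of lysine 9 of histone H3 is placed by histone acetyltransferases from acetyl-CoA and removed by histone deacetylases, and in plants it is a mark of active gene starts. Butyrylation and crotonylation put longer acyl groups on histone lysines from butyryl-CoA and crotonyl-CoA, and these modifications are also found at the starts of active genes. The antibodies against Kbu and Kcr recognise the modified lysine in any protein context, whereas the H3K9ac antibody recognises 1 residue of 1 histone.

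The seedling libraries came from DongJin rice, a japonica cultivar, grown to 12 days and harvested at ZT12 (12 h after light onset) as seedling leaves without root or endosperm. Control seedlings were not stressed, starved seedlings were kept in continuous darkness for 48 h, and submerged seedlings were kept under water for 6 h. Each of these 3 groups had 2 libraries for each of the 3 marks. H3K9ac was also measured in leaves of 30-day plants at ZT0, ZT6, ZT12 and ZT18 with 2 libraries each, and 1 input library came from untreated seedlings. The labels number replicates but do not say whether they came from separate plants, so p-values measure the spread between libraries, which may be technical. The lists give positions on the MSU7.0 assembly without gene names, and no annotation of that assembly was used here, so regions are named by position and the leaf label could not be checked against leaf genes.

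The depth behind the H3K9ac values differed between groups. MACS, the peak caller, used 10581295 and 11985500 tags (aligned reads) in the control H3K9ac libraries, 5631625 and 6480371 under starvation, 8885442 and 11650150 under submergence and 5914314 to 16232431 in the leaf libraries. As duplicates at a position it discarded 6.94% to 17.3% of the tags in the seedling H3K9ac libraries and 26.8% to 60.3% in the leaf libraries. A region without a peak in a library had less signal there than the caller's threshold, and its tags are not listed, so absence of a peak is not a count of 0. No peak in the lists has a score (10 times the −log10 of the caller's p-value) under 50.

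Most H3K9ac-only regions were weak H3K9ac regions. The median fold enrichment of their peaks over the local background was 4.53 in control replicate 1 and 4.44 in replicate 2, against 7.25 and 7.15 for regions with all 3 marks. The median score was 88.0 and 94.2, against 321 and 345. Their peaks held a median of 89 and 112 tags, where regions with all 3 marks held 187 and 211. Tag density was lower as well, with medians of 69.6 and 78.5 tags per kb of called peak against 118 and 129. The merged regions were narrower, with a median width of 1431 bp against 1795 bp. Regions with H3K9ac and only 1 of the acyl marks had control H3K9ac peaks of nearly the same strength as the H3K9ac-only regions, with median folds of 4.54 and 4.59 where the acyl mark was Kbu and of 4.52 and 4.69 where it was Kcr.

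The share of H3K9ac regions lacking both acyl marks fell steadily with H3K9ac strength. Of the 70 H3K9ac regions with a mean control fold under 3, 17 (24.3%) were H3K9ac-only. This share was 8.14% between folds of 3 and 4, 4.40% between 4 and 5, 1.81% between 5 and 6, 0.879% between 6 and 8 and 0.417% between 8 and 10. At a fold of 10 or more it was 0.155%, or 7 of 4525 regions. Nevertheless 73 members had a mean fold of 6 or more, so weakness did not describe every one of them. The replicates differed more in these regions than elsewhere, since the SD of the log2 ratio of the fold enrichments (replicate 2 to replicate 1) was 0.27 over the members and 0.18 over regions with all 3 marks.

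**Figure D1:**
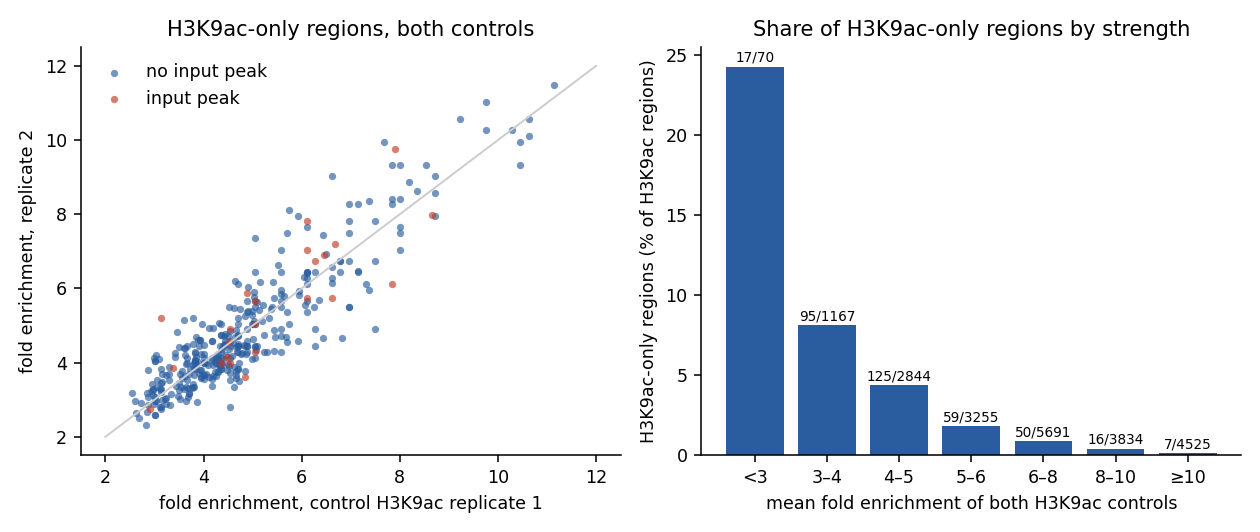
Left, fold enrichment of each of the 369 H3K9ac-only regions in control H3K9ac replicate 1 (x axis) and replicate 2 (y axis), with the line of equality and the 23 regions that overlap an input peak in red. Right, H3K9ac-only regions as a percentage of all H3K9ac regions in bins of mean control fold enrichment, with the counts above each bar; the share goes from 24.3% in the weakest bin to 0.155% in the strongest.

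The rule has a sharp edge on both sides. Just inside it, chr2:8804594-8805945 had H3K9ac scores of 50.13 and 63.14 in the 2 control libraries, chr6:8088613-8089563 had 52.78 and 50.15, and chr4:3153777-3154625 had 50.59 and 55.91. Just outside it were regions with H3K9ac in only 1 control library, such as chr12:11262150-11263977 with a score of 353 in replicate 2. In all, 304 regions without a called acyl mark had H3K9ac in 1 control library, with a median score of 60.8 for that peak. Among the members, 81 (21.95%) had a score under 60 in at least 1 control library.

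Absence of the acyl marks was complete in some members and partial in others. In the 4 control Kbu and Kcr libraries, 183 members had no peak, 104 had a peak in 1 library and 82 had 1 Kbu and 1 Kcr peak. Most of these acyl peaks were weak. Their median scores were 73.8 and 71.3 in the Kbu libraries and 67.4 and 70.0 in the Kcr libraries, where peaks in regions with all 3 marks had medians of 376 to 646. Scores of 100 or more were found at 6 of 41 and 18 of 82 in the Kbu libraries and at 6 of 72 and 15 of 73 in the Kcr libraries. The highest was 508, in Kcr replicate 2. The median H3K9ac fold in replicate 1 was 4.53 with no acyl peak, 4.51 with 1 and 4.70 with 2. By other measures members without an acyl peak were weaker, with a median of 80 tags against 107 and 97.5, and with 29.5% of H3K9ac scores at 100 or more against 46.2% and 42.7%. Counting stress libraries too, 110 members (29.8%) had no peak in any of the 12 Kbu and Kcr libraries.

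The strongest H3K9ac-only regions reached the enrichment of ordinary H3K9ac regions, with few acyl peaks in the control libraries as the rule requires. The 6 with the highest mean control fold are given in RPM, which is the tags in the region's peaks for every 1000000 tags the caller used in that library. At chr9:13604459-13605689 H3K9ac was 10.7 and 10.9 RPM in the controls, at folds of 11.15 and 11.48, and no control Kbu or Kcr library had a peak. At chr5:10715163-10716070 the H3K9ac values were 6.14 and 6.76, again with no control acyl peak. Its nearest member, chr5:10698326-10699453, lay 16727 bp away from centre to centre and had 6.33 and 8.09 for H3K9ac and 1 weak Kbu peak of 4.28.

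The other 3 regions of this strength followed the same pattern. The region chr10:12421302-12422726 had 11.8 and 12.3 H3K9ac RPM, with a Kbu peak of 5.73 in replicate 2 and a Kcr peak of 4.34 in replicate 2. The values at chr12:11951328-11952471 were 9.07 and 8.68 with no acyl peak, and those at chr12:12527346-12528339 were 8.51 and 7.51 with 1 Kbu peak of 3.56. All 6 had H3K9ac peaks in each of the 14 H3K9ac libraries, and none overlapped an input peak. Within each of them the lowest control H3K9ac value was above any listed control acyl value. Under starvation, however, Kbu was called in both libraries at 5 of the 6, the exception being chr12:11951328-11952471, with values of 3.72 to 7.63, and chr5:10698326-10699453 and chr10:12421302-12422726 had acyl peaks in 7 of the 12 Kbu and Kcr libraries.

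A few members kept H3K9ac everywhere and showed no acyl peak in any condition. H3K9ac peaks in all 14 libraries with no peak in the 12 Kbu and Kcr libraries were found at 9 members, of which 1 overlapped an input peak. The strongest was chr12:11951328-11952471, described above. At chr7:9552461-9553364 control H3K9ac was 5.95 and 7.51 RPM, and at chr4:3162415-3163634 it was 5.48 and 8.01. The highest control values among the 5 named were at chr6:21158778-21160201, with 15.4 and 16.2, followed by 20.1 and 21.1 under starvation and 11.9 and 13.6 under submergence. The remaining one, chr12:11489369-11490422, had 5.20 and 5.09 in controls and an input peak of 6.07.

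Overlap with input peaks was more common among the H3K9ac-only regions than among regions with all 3 marks. An input peak marks a place where unenriched chromatin already piles up tags. It overlapped 23 of the 369 members (6.23%), 126 regions with all 3 marks (0.608%), 2 regions with H3K9ac and Kbu (1.20%) and 10 with H3K9ac and Kcr (7.75%). At these 23 members the input peaks had folds of 2.94 to 11.75, with a median of 5.19. Per kb of called peak, H3K9ac RPM divided by input RPM ranged from 0.0455 to 1.10 with a median of 0.614, and the ratio was under 1 at 22 of the 23. The median ratio at regions with all 3 marks that overlapped input was 0.854, and 70 of 125 were under 1. At 22 of these members the H3K9ac peaks were thus less dense than the input peak that overlapped them. Each density was taken over its own called peak, so the 2 values do not cover the same interval. The part of input pile-up in their H3K9ac calls was not tested.

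Among the 23, the 3 with the highest control folds are given by value. These RPM values are totals over called peaks, whose lengths can differ. At chr2:13687988-13689207 H3K9ac was 6.62 and 9.01 RPM in peaks of 1118 and 1220 bp, where the input was 27.2 in a peak of 2510 bp. The ratio per kb there was 0.614. At chr4:5690989-5692055 the values were 6.80 and 5.59 against 5.62 in the input, which was the 1 region with a ratio over 1. At chr2:13749817-13750847 they were 5.67 and 4.76 against 11.6. The other extreme was chr12:20927219-20928651, picked out after its values were seen, with a ratio of 0.0455 per kb. The input peak there had 6203 tags and the H3K9ac peaks 91 and 88, as raw counts over peaks of unlike length. Of the 23, 6 lay on chromosome 12 and 4 each on chromosomes 2, 7 and 9. Leaving these regions out gave 346 members.

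H3K9ac-only regions lay along all 12 chromosomes but more often in sparsely marked stretches. Their share of the H3K9ac regions ranged from 1.18% on chromosome 6 to 2.23% on chromosome 12. Within 500 kb on either side they had a median of 55 regions with all 3 marks, whereas a region with all 3 marks had 64. Where 10 to 19 such neighbours lay within that distance 4.50% of H3K9ac regions were H3K9ac-only, where 20 to 39 did 2.71%, where 40 to 59 did 1.83%, where 60 to 79 did 1.34%, and where 80 or more did 1.44%. The input overlap was unevenly spread too, since 12 of the 23 overlapping members had 20 to 39 neighbours and 10 had 40 to 59.

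At close range the picture was mixed. The median distance from an H3K9ac-only region to the nearest region with all 3 marks was 5071 bp, and from a region with all 3 marks to the next one it was 5416 bp. Both tails were heavier for the H3K9ac-only regions. A region with all 3 marks lay within 1 kb of 46 members (12.5%) against 5.96%, and more than 50 kb away from 12 members (3.25%) against 0.787%. Members also lay near each other, since 75 of them (20.3%) had another member within 50 kb from centre to centre, while 8.74% of regions with all 3 marks had a member that close. This share was 14.4% for regions with H3K9ac and Kbu and 17.8% for those with H3K9ac and Kcr. In windows of 1 Mb, 225 of 379 held a member and 32 held 3 or more, with 120 members in all. The fullest window was on chromosome 1 between 16 and 17 Mb, with 7 members among 48 H3K9ac regions, 3 of them overlapping input. On chromosome 12 between 11 and 12 Mb 6 of 30 H3K9ac regions were members, 4 of which overlapped input, and on chromosome 5 between 10 and 11 Mb 5 of 31 were, none of which did.

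**Figure D2:**
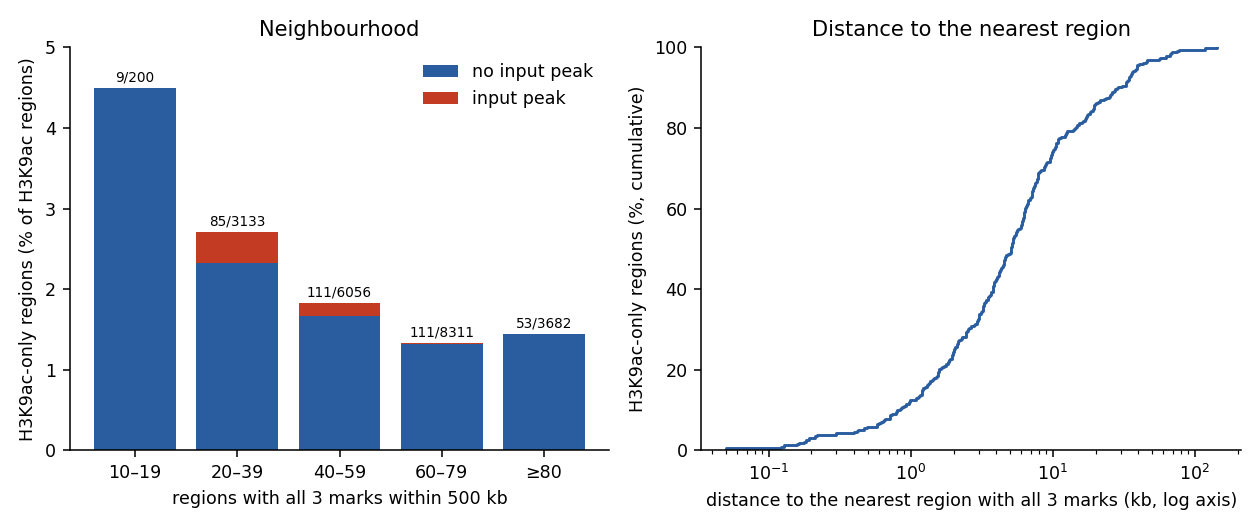
Left, H3K9ac-only regions as a percentage of all H3K9ac regions by the number of regions with all 3 marks within 500 kb, with counts above the bars and the part overlapping an input peak in red; 4 H3K9ac regions with fewer than 10 neighbours are not drawn. Right, cumulative percentage of the 369 regions by distance in kb (log axis) to the nearest region with all 3 marks, with a median of 5071 bp.

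Outside the control libraries H3K9ac was found less often at the H3K9ac-only regions than at regions with all 3 marks. Peaks in both starvation H3K9ac libraries were found at 203 members (55.01%) and in both submergence libraries at 224 (60.7%), against 90.1% and 94.9%. In the leaf libraries, which the rule did not use, the share with a peak in both libraries was 49.3% at ZT0, 54.2% at ZT6, 61.8% at ZT12 and 53.1% at ZT18, against 86.4% to 91.7%. H3K9ac peaks in all 14 libraries were found at 89 members (24.1%) against 77.1% of regions with all 3 marks. At the other end, 38 members (10.3%) had H3K9ac in the 2 control libraries alone, against 0.410%. Regions with 1 acyl mark were close to the members under stress but kept H3K9ac more often in the leaf. H3K9ac was in both libraries at 57.5% (starvation) and 65.3% (submergence) of those with Kbu and at 57.4% and 64.3% of those with Kcr. All 8 leaf libraries had a peak at 49.1% of those with Kbu and 58.9% of those with Kcr. For all 14 H3K9ac libraries these shares were 37.7% and 38.0%. All 8 leaf libraries had a peak at 140 members (37.9%), none had one at 81 (21.95%), and 28 (7.59%) had peaks in all 6 seedling libraries but in no leaf library.

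Persistence was higher among members of high control strength, though not in every step between bins, and it was lower than at regions with all 3 marks in most bins. Among members with a mean control fold between 4 and 5, 57.6% had H3K9ac in both starvation libraries, 75 of 125 in both submergence libraries and 35.2% in all 8 leaf libraries. Regions with all 3 marks in the same bin had 70.9%, 83.1% and 55.1%. Between folds of 6 and 8 the members' values were 88.0%, 82.0% and 48.0%, against 94.7%, 98.3% and 86.0%. In that bin the gap was widest in the leaf, where 26.0% of members but 2.21% of regions with all 3 marks had no peak in any library. Members between folds of 3 and 4 had 28.4% under starvation and 45.3% under submergence, below the 41.2% and 58.8% of those under 3. Under a fold of 3, with only 17 members, the leaf order was reversed at 41.2% against 28.3% with peaks in all 8.

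**Figure D3:**
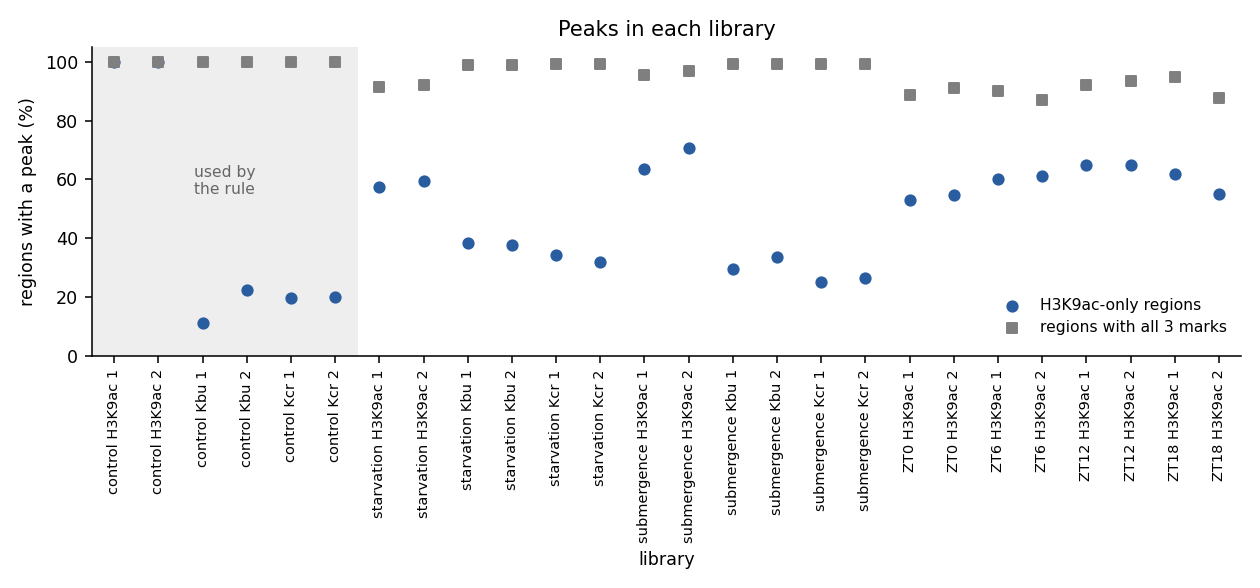
Percentage of the 369 H3K9ac-only regions (blue circles) and of the 20721 regions with all 3 marks (grey squares) that have a peak in each of the 26 antibody libraries. The shaded control libraries defined both classes, and outside them the H3K9ac-only regions range from 24.9% with a Kcr peak in submergence replicate 1 to 70.7% with an H3K9ac peak in submergence replicate 2.

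Under stress a minority of the H3K9ac-only regions had acyl marks. With starvation 127 members (34.4%) had Kbu or Kcr in both libraries of that mark, 103 of them Kbu and 90 Kcr. With submergence 93 (25.2%) did, 77 with Kbu and 62 with Kcr. In control libraries these numbers are 0 by the rule, so a count above 0 was possible in 1 direction only. Kbu and Kcr came with H3K9ac in 52 members under starvation and in 36 under submergence, and 28 and 17 members had an acyl mark without H3K9ac. The state that defined the members, H3K9ac with neither acyl mark, recurred at 104 members (28.2%) under starvation and at 148 (40.1%) under submergence. It was kept in both stresses, with H3K9ac in both libraries each time, at 66 members.

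The same rule applied to the stress libraries picked largely other regions. It gave 459 of 20440 H3K9ac regions (2.25%) in the starvation libraries and 376 of 21726 (1.73%) in the submergence libraries. Of the control members, 103 (27.9%) overlapped a starvation region of this kind, which was 104 (22.7%) of those regions, and 143 (38.8%) overlapped a submergence region, which was 142 (37.8%) of those. A class of H3K9ac-only regions of similar size was thus found in each condition, and most of its members changed from condition to condition.

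To compare H3K9ac levels between stressed and control seedlings, the tags of the peaks in each merged region were tested with edgeR's quasi-likelihood test over all regions with a peak in all 6 seedling H3K9ac libraries. A peak that touched several merged regions was counted in 1 of them only. The filter left 170 of the 369 members, 1 fewer than the 171 that a peak touched in all 6 libraries. Those tested had a median control fold of 5.03 and the 199 not tested one of 4.14. A weak member entered only if it kept its peak, so the counts below describe the 170 and say nothing of the members that lost H3K9ac. Such a filter favours rises among weak members, while most of the other regions tested were stronger, so the shares over all regions are not a like background. The control libraries that enter the differences also took part in choosing the members, and both stresses are compared with the same controls.

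Starvation was followed by higher H3K9ac at most of the tested members. H3K9ac rose at 91, where 18.4% of all 18617 tested regions rose, and fell at 13, where 20.9% of all regions fell (Benjamini-Hochberg adjusted p under 0.05). For any direction these are 104 members against 39.3% of all regions. The median log2 difference (starvation minus control) over the 170 was 0.46, with quartiles of -0.02 and 0.81, and the median over all tested regions was 0.00. At each of the 104 called members the starvation values, as RPM, lay entirely above or entirely below the control values. With 2 libraries a group a call nearly implies this, and the share over all regions was not counted. Called peak length moved with the falls, since all 13 fallen members had shorter peaks and 3 of them had lower tags per length. Among the risen members 48 had longer peaks, and all 91 were also higher per length. Being higher per length was general under starvation, since with the length offset the median of all regions was 0.29 and 9429 regions rose while 539 fell. The starvation libraries had fewer tags than the controls. At the same RPM a weak member held fewer tags there and was more easily left untested. Neither starvation library had a peak at 140 members (37.9%), against 6.60% of regions with all 3 marks. The part of depth and of the filter in this result was not tested. By DESeq2 43 members rose and 8 fell.

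The 3 largest rises under starvation were at regions with no more than 1 acyl peak in controls. At chr6:7481142-7483082 H3K9ac was 10.2 and 6.67 RPM in controls and 41.7 and 50.9 under starvation, a log2 difference of 2.44 ± 0.16 (SE, n = 2 libraries a group, edgeR adjusted p = 1.80e-05). This region had no acyl peak in controls, and under starvation it had Kbu in replicate 1 (12.4) and Kcr in both (11.2 and 20.5). It had no peak in any leaf library. At chr2:19639286-19641199 control values of 5.95 and 6.59 stood against 25.4 and 23.8 under starvation, a log2 difference of 1.92 ± 0.10 (edgeR adjusted p = 4.84e-06). There Kbu was called in both starvation libraries (15.7 and 14.4) and so was Kcr (14.4 and 18.3), after only 1 Kcr peak of 7.94 in controls. At chr10:21988654-21993764 the values were 22.2 and 45.8 in controls and 116 and 96.3 under starvation, a log2 difference of 1.58 ± 0.25 (edgeR adjusted p = 0.00138). Its 2 control values differed by more than those of the other regions and the groups still did not overlap. Called peaks lengthened at all 3, by log2 differences of 1.63, 1.24 and 0.92 in the order named, so part of each rise was extent. At chr6:7481142-7483082 they went from 1793 and 1185 bp to 3762 and 5386 bp, beyond the control region of 1941 bp. At chr10:21988654-21993764, which lay 157 bp from a region with all 3 marks, they reached 7117 and 5824 bp.

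The 3 largest falls under starvation were at regions wider than most members, and their peaks shortened. The widest of all members, chr3:12350941-12358506 with 7566 bp, had 81.6 and 82.0 RPM of H3K9ac in controls and 23.6 and 19.6 under starvation. Its log2 difference was -1.97 ± 0.08 (edgeR adjusted p = 1.64e-06), while the called peaks went from 7402 and 7104 bp to 1524 and 1602 bp. With the called length as an offset the difference became 0.25, so tags per length did not fall. Kbu was called there at 19.1 and 17.9 and Kcr at 36.4 and 17.0 under starvation, so acyl peaks were called at falling regions as well as at rising ones. The region chr8:16351772-16356658 had 30.9 and 33.6 in controls and 8.52 and 14.2 under starvation, a log2 difference of -1.52 ± 0.26 (edgeR adjusted p = 0.00207), and of 0.42 with the length offset, and it had acyl peaks in all 4 starvation Kbu and Kcr libraries. At chr10:10165741-10168093 the values of 31.8 and 36.0 stood against 16.3 and 17.4, with a log2 difference of -1.05 ± 0.09 (edgeR adjusted p = 6.81e-05), and there the direction was kept with the offset.

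Submergence gave fewer changes. H3K9ac rose at 50 of the 170 tested members, where 14.4% of all regions rose, and fell at 19, where 18.7% of all regions fell, which makes 69 in any direction against 33.1% of all regions. Without submergence replicate 2 there were 29 that rose and 17 that fell. The median log2 difference (submergence minus control) was 0.20, with quartiles of -0.06 and 0.39, against 0.01 over all regions. Here too no called member had overlapping groups, which a call nearly implies. Peaks were longer at 46 of the 50 risen members and shorter at all 19 that fell, and per length 48 were also higher and 10 also lower. By DESeq2 17 rose and 7 fell.

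The 3 largest rises under submergence were at chr11:8466688-8468485, chr9:6426926-6428319 and chr6:7481142-7483082. At chr11:8466688-8468485 H3K9ac was 12.4 and 12.2 RPM in controls and 38.9 and 43.3 under submergence, a log2 difference of 1.77 ± 0.09 (edgeR adjusted p = 4.29e-06). Kbu there was 11.2 and 10.9 under submergence and Kcr 8.37 and 11.3, after 1 control Kcr peak of 5.90. At chr9:6426926-6428319 control values of 7.94 and 7.34 stood against 25.4 and 23.5, a log2 difference of 1.69 ± 0.08 (edgeR adjusted p = 3.16e-06), with Kbu at 9.38 and 9.09 and Kcr at 10.9 and 8.22 after none in controls. The region chr6:7481142-7483082, named above for starvation, had 24.4 and 26.9 under submergence, a log2 difference of 1.64 ± 0.17 (edgeR adjusted p = 0.000187). At all 3 the control values lay below both submerged values, and called peaks were longer under submergence. They went from 1695 and 1786 bp to 3829 and 4040 bp at chr11:8466688-8468485. At chr9:6426926-6428319 they went from 1370 and 1363 bp to 2283 and 2273 bp, and at chr6:7481142-7483082 from 1793 and 1185 bp to 2344 and 3401 bp.

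The 3 largest falls under submergence were also at regions wider than most members. The region chr3:12350941-12358506 had 27.5 and 25.5 RPM under submergence, a log2 difference of -1.62 ± 0.07 (edgeR adjusted p = 1.88e-06) that became -0.12 with the length offset. The region chr8:16351772-16356658 had 18.01 and 9.36, a log2 difference of -1.29 ± 0.21 (edgeR adjusted p = 0.00216), and 0.045 with the offset. At chr5:27606581-27612140 H3K9ac was 21.0 and 21.7 in controls and 8.67 and 9.61 under submergence, a log2 difference of -1.20 ± 0.08 (edgeR adjusted p = 2.18e-05), and 0.36 with the offset. At these 3 regions the called extent of the domain shrank, and tags per length moved little or the other way. Acyl peaks were called here too, since under submergence chr3:12350941-12358506 had Kbu at 31.4 and 39.8 and Kcr at 21.6 and 33.6, after 1 control Kbu peak of 28.5.

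**Figure D4:**
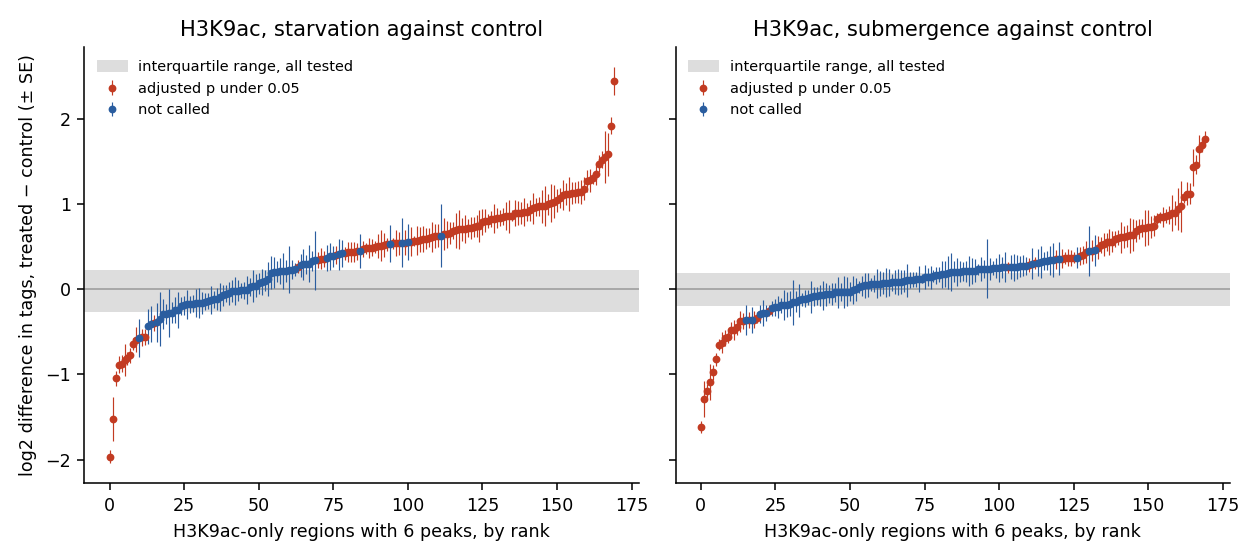
Log2 difference in H3K9ac tags (treated minus control, ± SE) of the 170 H3K9ac-only regions with a peak in all 6 seedling H3K9ac libraries, ranked on the x axis, for starvation (left) and submergence (right). Red points have an edgeR adjusted p under 0.05, 104 on the left and 69 on the right, and the grey band is the interquartile range of all 18617 tested regions.

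Of the 3 widest members, 1 kept an H3K9ac peak in all 14 libraries and the other 2 had none in either stress. After chr3:12350941-12358506 the widest were chr2:20072036-20078172 with 6137 bp and chr2:8718417-8724395 with 5979 bp. The former had 59.1 and 60.8 RPM of H3K9ac in controls, 1 Kbu peak of 7.17 and no peak in any stress library of any mark. In the leaf it had peaks in 3 of 8 libraries, at 4.01 to 6.86. The latter had 25.2 and 39.97 in controls, no H3K9ac peak in either stress, and weak Kbu and Kcr peaks under starvation at 4.73 to 6.01. Its leaf peaks were in 3 of 8 libraries, at 9.86 to 24.6. Neither could enter the tests, because stress libraries lacked a peak.

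In the 30-day leaf, the H3K9ac-only regions varied over the day more often than regions with all 3 marks by the presence of peaks. A peak in both libraries of 1 time point together with none in either library of another was found at 85 members (23.04%) and at 5.83% of regions with all 3 marks. The most frequent pattern was a peak at ZT12 and none at ZT0, at 46 members, and the opposite was found at 11. Among regions with all 3 marks, 523 had a peak at ZT12 and none at ZT0 and 152 had the opposite. Weak peaks cross the caller's threshold more easily than strong ones, and depth differed between the leaf libraries. The part of each was not tested.

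Tag levels over the day could be tested with edgeR at the 131 members with counted tags in all 8 leaf libraries, of the 140 that a peak touched in all 8. Of these, 63 differed between the 4 time points (adjusted p under 0.05), where 35.9% of all 17736 tested regions did. Without ZT12 replicate 1 the members called were 39 and all regions 3900, and with the length offset they were 37 and 2647. The median range between the highest and the lowest time point was 0.59 on the log2 scale over the 131 and 0.43 over all tested regions. H3K9ac was highest at ZT6 in 35 of the 63, at ZT12 in 17, at ZT0 in 6 and at ZT18 in 5. Over all called regions 32.0% were highest at ZT6, 28.9% at ZT12, 23.5% at ZT0 and 15.6% at ZT18.

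The 3 members with the widest range were high at different times. At chr1:8951713-8952842 H3K9ac was 113 and 127 RPM at ZT0, 20.7 and 21.6 at ZT6, 7.29 and 8.24 at ZT12, and 20.5 and 14.7 at ZT18, a log2 range of 4.06 (edgeR adjusted p = 1.34e-05). In control seedlings, harvested at ZT12, this region had 6.14 and 4.76, which was close to the leaf at the same hour. At chr8:15989330-15992671 the values were 7.62 and 5.67 at ZT0, 38.6 and 44.4 at ZT6, 84.8 and 81.8 at ZT12, and 38.5 and 48.9 at ZT18, a log2 range of 3.55 (edgeR adjusted p = 6.90e-05). It had no H3K9ac peak in either starvation library and no acyl peak anywhere. At chr12:24436175-24438501 H3K9ac was 8.74 and 12.5 at ZT0, 75.4 and 107 at ZT6, 86.6 and 70.0 at ZT12, and 15.6 and 22.3 at ZT18, a log2 range of 3.05 (edgeR adjusted p = 0.000189), again with no acyl peak in any library. Here too the control seedling mean, 12.5 RPM, was well below the leaf at ZT12. At each of these 3 regions both libraries at the lowest time point were below all libraries of the highest. Their choice as called members with the widest range nearly implies this.

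Daily change was also plain at members that the test left out. At chr8:16351772-16356658, whose H3K9ac was lower under both stresses, the leaf had no peak at ZT0, 28.5 and 49.6 RPM at ZT6, 97.5 and 96.2 at ZT12 and 2.90 and 6.59 at ZT18. At chr10:10165741-10168093 the leaf had no peak at ZT0, 60.5 and 63.0 at ZT6, 38.7 and 37.7 at ZT12, and at ZT18 1 peak of 21.6. Both lacked a peak at ZT0.

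A small set of members was far higher in leaf than in seedlings by RPM. This set was defined after the values were seen, as members with peaks in all 14 H3K9ac libraries whose lowest leaf value was at least 3 times their highest seedling value. It held 7 of 89 members (7.87%), where 21 of 15977 regions with all 3 marks (0.131%) met the same definition. At chr12:11489369-11490422, which overlaps an input peak, the seedling values were 4.38 to 8.33 RPM and the leaf values 64.6 to 100.3. At chr7:9552461-9553364 they were 5.95 to 15.4 and 56.8 to 79.8. The others were chr7:9681878-9682932, chr7:9702962-9703994, chr12:11539189-11540216, chr12:12799601-12800518 and chr1:42626002-42627438, with leaf values between 34.6 and 79.0. Of the 7, 3 lay within a span of 151534 bp on chromosome 7, and in 6 the highest leaf value was at most 1.55 times the lowest. Of the members with the highest control folds, chr12:11951328-11952471 with 8.68 to 17.0 in seedlings and 49.96 to 66.4 in leaf came close to the limit. Per kb of called peak 3 of the 7 still met it. Fold enrichment over the local background did not always follow RPM. At chr7:9552461-9553364 it was 6.97 to 8.8 in leaf, 6.97 and 8.27 in controls and 16.95 and 17.36 under starvation. At chr12:11951328-11952471 it was 14.72 to 17.27 in leaf, 10.28 and 10.26 in controls and 26.04 and 23.72 under starvation. At chr12:11489369-11490422 it was 13.35 to 15.82 in leaf and 5.37 to 10.58 in seedlings. Leaf and seedling lists were made from separate libraries with unlike shares of discarded duplicates, so plant age and library set cannot be told apart. Only 1 of the 7 overlapped an input peak, but the input came from seedlings. Pile-up of tags in the leaf libraries was therefore not tested.

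**Figure D5:**
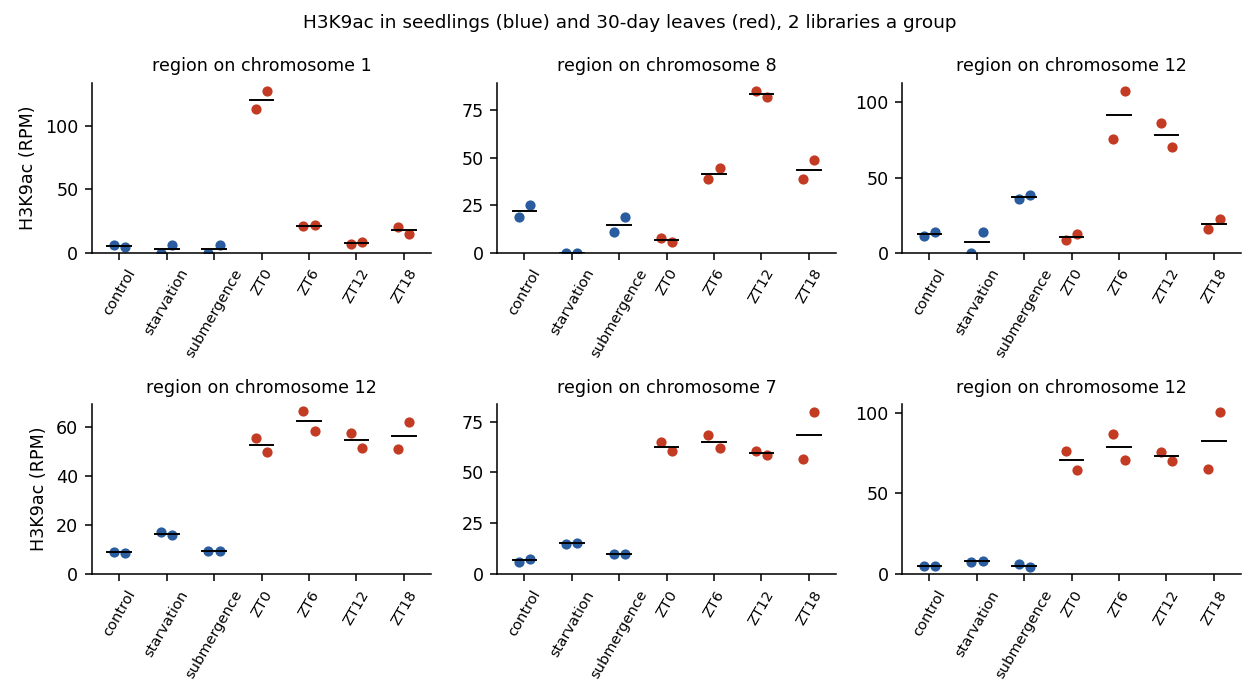
H3K9ac in RPM in each of the 2 libraries (points) and their mean (bar) for seedling groups (blue) and leaf time points (red), where a point at 0 is a library without a listed peak. Top, from left, chr1:8951713-8952842, chr8:15989330-15992671 and chr12:24436175-24438501, which vary over the day. Bottom, from left, chr12:11951328-11952471, chr7:9552461-9553364 and chr12:11489369-11490422, which are flat over the day and higher in leaf than in seedlings by RPM, though not always by fold enrichment.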

How the data were processed

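ChIP-seq libraries were analysed from 1 deposited peak list each (26 antibody libraries and 1 input). Per the labels and file headers, the authors trimmed reads with Trimmomatic (0.33 in the processing notes), aligned them to MSU7.0 with Bowtie2 2.2.5, filtered with SAMtools 0.1.19 and called peaks per library with MACS 1.4.2 at p 1e-05, band width 300 and a 10000-bp lambda, without input as control. Each deposited list gives per peak its tag count, fold enrichment (a ratio) and score, 10 times the −log10 of p. Columns of authors' comparisons were not used.

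Peaks were merged at 1 bp overlap, and tags of a region's peaks were summed per library. edgeR 4.0.16 (R 4.3.3) tested counts over regions with a peak in every library (TMM, quasi-likelihood, Benjamini-Hochberg, 0.05), with all 3 seedling groups or all 4 leaf time points in 1 fit. On simulated counts with 200 regions changed 2-fold, 99.5% were recovered for starvation, 100% for submergence and 99.5% for the leaf. False calls numbered 9, 23 and 11. The simulation gave all regions 1 dispersion and drew the changed ones from all tested regions, so it does not measure recovery at weak members. DESeq2 1.42.0 and the other alternatives are in the closing section. The members, lists and tests were chosen with earlier results of these data known. Named regions are the 6 of highest control fold, the 5 strongest with all 14 H3K9ac peaks and no acyl peak, the 3 largest called rises and falls per stress and leaf ranges, the 3 strongest overlapping input and the 3 widest. Planned gene groups, leaf markers and GC content were not analysed here, since no MSU7.0 genome or annotation was used. The RNA-seq samples were not analysed here. Pairing by replicate number was checked and is in the closing section. Intervals of counts cover counting error only.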

Additional observations from a re-analysis of the deposited data

How the results depend on the processing

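The number of H3K9ac-only regions moved with the rule. It was 111 with a score of at least 100 required of the H3K9ac peaks, 183 with no acyl peak allowed in any of the 4 control libraries, and 698 where an acyl peak had to cover 50% of the H3K9ac peaks. With replicate 1 or replicate 2 left out it was 397 or 382.

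Counts of called members (main values 104, 69 and 63 for starvation, submergence and leaf) moved with the settings. DESeq2 called 51 members under starvation and 24 under submergence. A change over 1.5-fold in both replicates was met by 66 and 22, and a score of at least 100 left 37 and 23, both of 49 members tested instead of 170. The called length as an offset, chosen after seeing the data, gave 33 under submergence and 37 in the leaf. Leaving out 1 library gave 76 to 104 under starvation, 46 to 65 under submergence (29 risen members in place of 50 without submergence replicate 2) and 39 to 62 in the leaf, where the library that mattered most was ZT12 replicate 1 (39 without it).

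Over all regions DESeq2 called 1911 under starvation (549 higher, 1362 lower, against 3425 and 3899 by edgeR) and 1135 under submergence (304 and 831, against 2683 and 3476). A 1.5-fold change in both replicates was met by 1947 and 1197 regions, and leaving out 1 library took the edgeR counts as low as 4754, 4103 and 3900 for starvation, submergence and leaf. The length offset moved the median of all regions to 0.29 under starvation, with 9429 higher and 539 lower (129 and 1 of the members), and gave 3215 (1785 and 1430) under submergence and 2647 in the leaf. With library sizes from all tags used, the starvation split was 4105 higher and 3507 lower.

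With that offset the log2 difference of chr3:12350941-12358506 was 0.25 under starvation and -0.12 under submergence, that of chr8:16351772-16356658 0.42 and 0.045, and that of chr5:27606581-27612140 under submergence 0.36. By construction the offset removes the shortening of the called peaks. Of 221 pairs of a named region and an alternative, 216 kept the call, and in the stress tests the direction too. For leaf regions only the call was compared. Direction reversed in 4 pairs, and 1 pair lost the call.

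Presence in both libraries with scores of at least 100 was found for starvation at 129 (H3K9ac), 42 (Kbu) and 29 (Kcr) members and for submergence at 120, 21 and 12. A peak in at least 1 library was found for starvation at 177 (Kbu) and 155 (Kcr) and for submergence at 156 and 128. Leaving out members that overlap an input peak gave 102, 64 and 63 called members.

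Replicate numbers did not pair the libraries, since deviations from group means correlated at 0.0964 to 0.106 in seedlings and at -0.113 to 0.244 in leaves. With the replicate block 108 members were called under starvation, 69 under submergence and 61 in the leaf. Depth limits the weak regions, as a peak near a score of 50 can be lost in a shallower library.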

Other observations

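Members that lacked an acyl peak in all 12 Kbu and Kcr libraries differed in several values from the other members. These 110 regions had a median of 45.5 regions with all 3 marks within 500 kb, against 60 for the other 259, and 11 of them (10.0%) overlapped an input peak, against 4.63%. H3K9ac was found in all 14 libraries at 9 of the 110 (8.18%) and at 30.9% of the others, and in the 2 control libraries alone at 23 (20.9%) and at 5.79%. Their median fold was 4.51 against 4.62 in control replicate 1 but 4.515 against 4.42 in replicate 2. In replicate 1 their median tags were 74.5 against 98 and their median score 80.2 against 94.1. In that library 23.6% against 42.9% had a score of at least 100.

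The 28 members with H3K9ac in all 6 seedling libraries and in no leaf library were narrow, with higher folds but fewer tags than members in general. Their median width was 1065.5 bp, and they had a median of 34 regions with all 3 marks within 500 kb. Their median control folds were 6.02 and 6.11, against 4.53 and 4.44 over all members and 7.14 and 7.04 over all H3K9ac regions. Median tags were 59 and 71, against 89 and 112 over all members. The 38 members with H3K9ac in the controls alone were wider, with a median of 1765.5 bp, and had lower median folds of 4.18 and 4.38.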
